A study of Mus musculus with 16 samples.

Results

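Among the 8 liver libraries of 1-month-old mice, 3 held more reads of Arntl than of Dbp and 5 held more of Dbp. The 3 are called Arntl-high here. They were control replicate 2, DEN day 2 replicate 3 and DEN day 6 replicate 2, so each treatment group had 1 of them, and they are 3 of the 16 libraries of the series. The other 5 are called Dbp-high. Both sides were chosen by the level of these 2 genes in counts scaled to a library of 1000000 (CPM), over library sizes scaled by TMM, in the same libraries that are compared below. A difference between the sides is therefore a description of how the libraries separate and not a test of a factor that the study planned. All mice were C57BL/6 wild type males bought from Harlan. At 1 and at 6 months of age there were 2 libraries of untreated controls, 3 from day 2 and 3 from day 6 after 1 intraperitoneal injection of DEN (diethylnitrosamine, which hepatocytes turn into a DNA-alkylating agent) at 25 mg/kg, as the labels give it. By the labels, mice of the younger age were 3 to 4 weeks old. Each library was a pool of equal RNA from 3 mice, so the spread between libraries is one between pools and understates that between mice. The sources used here do not state the hour at which livers were taken. No control is labelled as taken on day 2 or on day 6, so days after DEN and days of growth cannot be told apart. The 8 libraries of 6-month-old mice took no part in the choice of the sides and are used below as a separate set.

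Total counts were 25329702 to 31785053 in the Arntl-high libraries, 21486961 to 27411518 in the Dbp-high libraries and 19039330 to 34459774 at 6 months. The TMM factors were 0.906 to 0.926, 0.971 to 1.01 and 0.998 to 1.10 in the same order. Of 10 hepatocyte markers, 9 had enough counts to test, while Alb was listed at 0 in every library. They summed to 43488 to 46759 CPM in the Arntl-high, 31467 to 41531 CPM in the Dbp-high and 32091 to 38997 CPM in the 6-month libraries.

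The circadian clock of a cell is a loop of transcription factors. ARNTL (also called BMAL1) pairs with CLOCK or NPAS2, binds E-boxes and drives the genes of its own repressors, the PER and CRY proteins, and of DBP, TEF and HLF, a family of bZIP activators that bind D-boxes. A second loop returns to Arntl, whose promoter is repressed by NR1D1 and NR1D2 (REV-ERB) and activated by ROR receptors at a shared element. In a liver with a running clock Arntl RNA is therefore high when Dbp RNA is low, and many genes of bile acid, lipid and drug metabolism follow the same day.

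The promoters below are shown because each carries, in capitals, the letters through which one arm of this loop is read. The searches used CACGTG for the E-box, TTATGTAA or TTACGTAA for the D-box and TAGGTCA for the REV-ERB/ROR element, on both strands, with no overlap between the motifs. The sequences are those of RefSeq on GRCm38.p6, printed in the direction of the gene. Per1, Tef and Arntl also have another start among the promoters searched, which is not printed. At that start the promoters of Per1 and Arntl held none of these motifs, and that of Tef held an E-box. Each holds the 250 bases before the start of transcription, and for Arntl only the 30 bases around its element are given, which begins 30 bases after the start.
Ciart, chr3:95882229-95882478, minus strand, E-boxes beginning 116, 58 and 44 bases before the start: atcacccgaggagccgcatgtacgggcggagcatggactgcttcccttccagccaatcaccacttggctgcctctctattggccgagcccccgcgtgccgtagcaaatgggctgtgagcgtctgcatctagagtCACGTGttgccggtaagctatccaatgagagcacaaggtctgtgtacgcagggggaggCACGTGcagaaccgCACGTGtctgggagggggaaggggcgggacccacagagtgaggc
Per1, chr11:69098699-69098948, plus strand, E-box 166 bases before the start: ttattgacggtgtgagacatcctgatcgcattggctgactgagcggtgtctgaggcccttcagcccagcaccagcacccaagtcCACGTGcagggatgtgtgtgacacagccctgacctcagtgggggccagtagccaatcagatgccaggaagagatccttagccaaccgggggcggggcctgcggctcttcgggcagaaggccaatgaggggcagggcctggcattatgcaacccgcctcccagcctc
Tef, chr15:81802423-81802672, plus strand, E-box 127 bases before the start: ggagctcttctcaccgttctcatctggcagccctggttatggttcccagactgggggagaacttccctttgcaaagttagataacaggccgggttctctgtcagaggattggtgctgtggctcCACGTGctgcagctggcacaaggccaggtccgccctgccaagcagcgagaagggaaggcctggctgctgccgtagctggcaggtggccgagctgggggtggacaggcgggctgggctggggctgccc
Per3, chr4:151044666-151044915, minus strand, D-boxes 205 and 158 bases before the start: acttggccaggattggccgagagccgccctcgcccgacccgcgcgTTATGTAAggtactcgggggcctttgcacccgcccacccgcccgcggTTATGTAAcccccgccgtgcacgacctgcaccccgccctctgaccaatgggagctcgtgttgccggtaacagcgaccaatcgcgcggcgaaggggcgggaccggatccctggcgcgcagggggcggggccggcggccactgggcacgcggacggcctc
Nfil3, chr13:52981040-52981289, minus strand, REV-ERB/ROR element (on the opposite strand) 12 bases before the start: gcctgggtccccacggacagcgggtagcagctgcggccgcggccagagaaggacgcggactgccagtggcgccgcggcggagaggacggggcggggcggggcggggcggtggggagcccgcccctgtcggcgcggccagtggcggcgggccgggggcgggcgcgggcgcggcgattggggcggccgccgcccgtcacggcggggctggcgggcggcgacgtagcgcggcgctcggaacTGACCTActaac
Arntl, chr7:113207530-113207559, plus strand, REV-ERB/ROR element: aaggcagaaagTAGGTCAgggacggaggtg
Of the 23 clock genes with enough counts to test, 18 had a promoter in the table, and 5 of these (27.8%) held an E-box, 1 a D-box and 2 a REV-ERB/ROR element. An E-box was found for 11.3% of all tested genes with a promoter. In the same window of 250 bases before and 50 after the start, 7.15% of all 32851 promoters held the E-box, 1.06% the D-box and 2.61% the REV-ERB/ROR element. A match of letters is not a site shown to be bound, and a gene without one may carry its element elsewhere.

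Values of the Arntl-high libraries are given from here on in the order control, day 2 and day 6. Values of the Dbp-high libraries are given in the order control replicate 1, day 2 replicates 1 and 2, and day 6 replicates 1 and 3. Arntl, the activator whose loss stops the clock, stood at 30.99, 35.2 and 37.8 CPM in the Arntl-high libraries and at 0.805, 1.15, 0.839, 4.61 and 10.7 CPM in the Dbp-high libraries. Dbp, the output factor, stood at 1.87, 0.871 and 0.376 CPM in the Arntl-high and at 71.2, 128, 89.9, 28.1 and 58.5 CPM in the Dbp-high libraries. Neither gene had overlapping values between the sides. These are the values that chose the members, and CPM is not scaled by transcript length, so that the rule compares read counts and not numbers of molecules. The log2 ratio of Arntl to Dbp (0.5 CPM added to both) was 3.73 in control replicate 2, the Arntl-high library nearest to the limit, and −2.40 in day 6 replicate 3, the Dbp-high library nearest to it. It was 4.70 and 5.45 in the other two Arntl-high libraries and −5.78, −6.28, −6.08 and −2.48 in the other Dbp-high libraries. The Dbp-high libraries were thus not alike, with both of those from day 6 nearer to the limit than those from controls and day 2. At 6 months the ratio ran without a gap of this size, at −1.27 and −2.05 in the controls, −5.004, −3.85 and 1.77 at day 2, and −5.61, −1.59 and 0.17 at day 6.

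**Figure D1:**
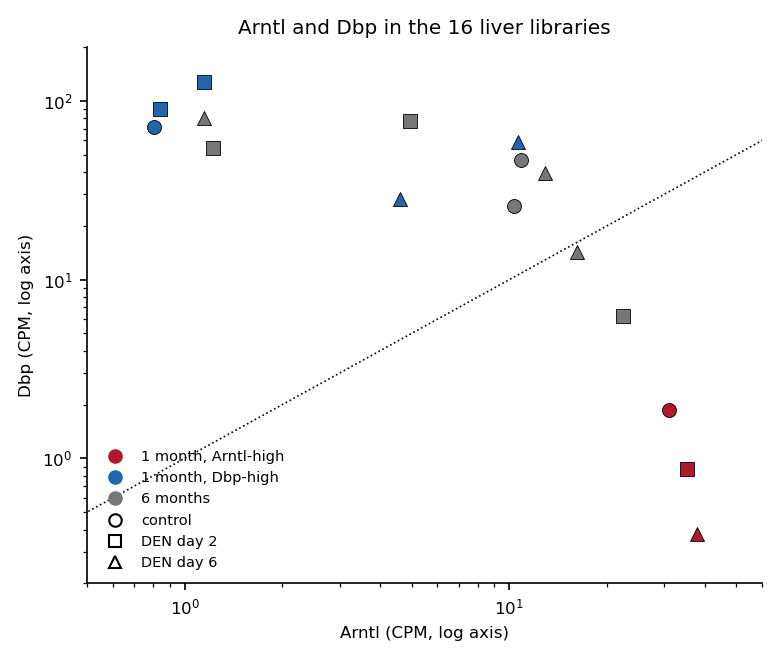
Dbp (vertical axis, CPM, log axis) against Arntl (horizontal axis, CPM, log axis) in each of the 16 libraries, with the symbol for treatment, the colour for side or age, and a dotted line where both genes have equal CPM. The 3 Arntl-high libraries lie at the lower right with Dbp at 1.87 CPM or less, and the 6-month libraries lie between the extremes of the 1-month libraries.

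The partners of ARNTL were on the same side. Clock, the usual partner, was measured at 74.2, 72.5 and 69.5 CPM in the Arntl-high and at 28.5, 26.04, 23.9, 45.3 and 31.3 CPM in the Dbp-high libraries, a log2 difference of 1.26 (SE 0.166). Npas2, which can take the place of CLOCK, was measured at 7.65, 11.8 and 10.8 CPM against 0.115, 0, 0.109, 0.0480 and 3.11 CPM, a log2 difference of 4.58 (SE 0.898). In both genes every Arntl-high library was above every Dbp-high library. A looser condition, no overlap within any treatment group and 1 direction, held for 33.3% of all genes tested. The share of all genes without overlap between the whole sides is not given here, so non-overlap is a description of each gene named. Npas2 was at or near 0 in 4 of the Dbp-high libraries, so the size of its difference depends on the prior count of the fit. Day 6 replicate 3 was the Dbp-high library with the most Npas2, as it was for Arntl.

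Most repressors of the loop were on the other side. Per1, an immediate E-box target, was at 27.9, 18.4 and 12.6 CPM in the Arntl-high libraries and 55.5, 76.1, 46.7, 62.4 and 43.1 CPM in the Dbp-high libraries. Per2 was at 12.3, 11.8 and 10.4 against 48.8, 52.9, 37.2, 86.01 and 40.03 CPM. Per3 was at 4.76, 2.66 and 2.48 against 59.03, 87.96, 38.98, 42.5 and 36.8 CPM. The log2 differences were −1.64 (SE 0.250) for Per1, −2.18 (SE 0.279) for Per2 and −4.07 (SE 0.320) for Per3, and none of the 3 overlapped between the sides. Ciart, a repressor of ARNTL that carries 3 of the E-boxes printed above, was at 1.53, 0.654 and 0.413 CPM against 25.4, 27.1, 13.7, 24.8 and 15.2 CPM, the largest difference of the list at −4.76 (SE 0.385). Nr1d2, the REV-ERB paralog, was at 61.00, 46.5 and 25.9 against 168, 204, 148, 122 and 105 CPM with a log2 difference of −1.86 (SE 0.171). Bhlhe41, an E-box binding repressor, was at 0.272, 0.174 and 0.113 against 1.15, 2.44, 0.985, 0.672 and 1.26 CPM with a difference of −2.75 (SE 0.498), at few counts. In all of these genes the Arntl-high library of day 6 had the lowest value of the 8. For the related repressor Bhlhe40 the log2 difference was −1.02 (SE 0.299) and for Cry2 it was −0.75 (SE 0.203).

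A few members of the loop did not separate the sides. Nr1d1 was at 69.5, 29.6 and 33.4 CPM in the Arntl-high and 71.00, 70.3, 40.3, 21.3 and 40.5 CPM in the Dbp-high libraries, and Cry1 at 14.7, 24.3 and 22.6 against 11.2, 10.2, 11.4, 30.4 and 13.5 CPM. In day 6 replicate 1, a Dbp-high library, Nr1d1 was at its lowest of the 8 while Per2 and Cry1 were at their highest. The 5 Dbp-high libraries therefore differed in which repressor was high as well as in their Arntl to Dbp ratio. The log2 differences were −0.27 (SE 0.281) for Nr1d1 and 0.57 (SE 0.277) for Cry1, with overlapping values in both. The kinases Csnk1d and Csnk1e, which mark PER proteins for decay, had log2 differences of 0.12 and 0.10, and Fbxl21, which acts on the decay of CRY proteins, of 0.38.

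In the second loop, Nfil3, a repressor that competes with DBP at D-boxes and has a REV-ERB/ROR element in its promoter, was at 57.4, 46.7 and 69.7 CPM in the Arntl-high libraries and 12.4, 10.2, 9.66, 31.6 and 25.7 CPM in the Dbp-high libraries, a log2 difference of 1.89 (SE 0.186). Rora, a ROR receptor, had a difference of 0.19, and Rorb had too few counts to test. Tef and Hlf, the relatives of Dbp, were both lower in the Arntl-high libraries. Tef was at 69.7, 37.3 and 31.2 against 269, 309, 223, 218 and 178 CPM, and Hlf at 44.9, 37.3 and 33.8 against 80.4, 87.3, 58.02, 86.1 and 55.2 CPM. The log2 differences were −2.52 (SE 0.204) and −0.96 (SE 0.188). Nfil3, Tef and Hlf did not overlap between the sides, with the repressor of D-boxes high where their activators were low.

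**Figure D2:**
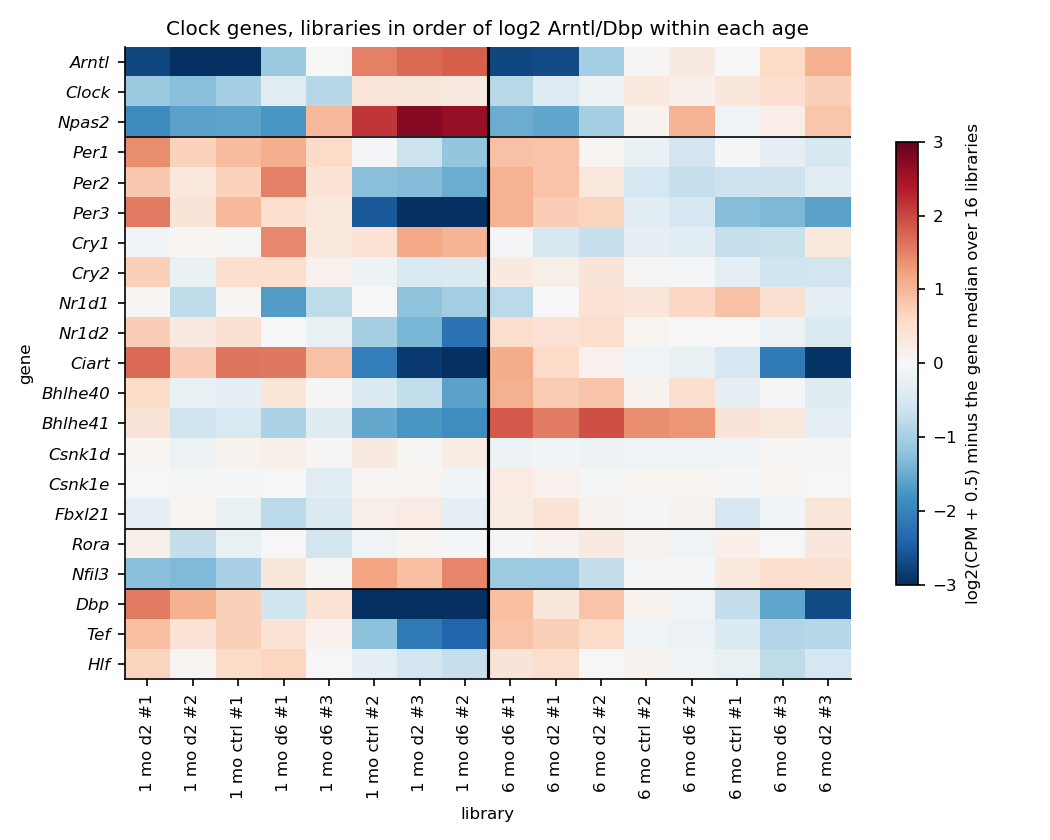
The clock genes reported here (vertical axis, grouped as activators, repressors and modulators, ROR receptors and Nfil3, and bZIP output factors) in the 16 libraries (horizontal axis, 1 month left and 6 months right, in order of the Arntl to Dbp ratio within each age), coloured by log2(CPM + 0.5) minus the gene's median over all libraries with the colours limited to −3 and 3. The rightmost 3 columns of the 1-month block are the Arntl-high libraries, with Arntl, Npas2 and Nfil3 in red and Per3, Ciart, Dbp and Tef in blue, and at 6 months these genes turn over more gradually from left to right.

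The 6-month libraries allowed a test that the rule had not used. Each gene other than Arntl and Dbp was fitted there by edgeR's quasi-likelihood test against the log2 ratio of Arntl to Dbp, with treatment group as a covariate and Benjamini-Hochberg adjustment over 15682 genes. The slope is the log2 change in a gene for each log2 unit of the ratio. At an adjusted p under 0.1, 7.18% of all genes passed. Of the 21 clock genes tested here 14 passed, each in the direction of its difference between the 1-month sides. Clock had a lowest of 32.2, a median of 67.1 and a highest of 94.8 CPM over the 8 libraries and rose with a slope of 0.19 (SE 0.0177, adjusted p = 0.00498). Npas2 rose by 0.55 (SE 0.116, adjusted p = 0.0539), and Nfil3 by 0.25 (SE 0.0175, adjusted p = 0.00220). Tef had a lowest of 88.8, a median of 148 and a highest of 299 CPM and a slope of −0.26 (SE 0.0190, adjusted p = 0.00220). Per3 had a lowest of 9.36, a median of 22.3 and a highest of 61.7 CPM and a slope of −0.40 (SE 0.0341, adjusted p = 0.00332), and Ciart a lowest of 0.597, a median of 7.05 and a highest of 17.8 CPM and a slope of −0.59 (SE 0.0619, adjusted p = 0.00806). Over the whole span of the ratio at 6 months the fitted slopes come to a 2.65-fold rise of Clock, a 3.83-fold fall of Tef and a 20.5-fold fall of Ciart. Per1, Per2, Cry2, Nr1d2, Bhlhe40, Bhlhe41 and Hlf also fell, with slopes of −0.19, −0.22, −0.13, −0.13, −0.19, −0.33 and −0.16. Cry1 (0.044), Nr1d1 (0.059), Rora, Csnk1d, Csnk1e and Fbxl21 did not pass. Of the genes just named, Clock, Per3, Ciart, Nfil3 and Tef kept their call without any 1 of the 8 libraries, and the other 8 lost it without 1 or more of them. The highest adjusted p among these was 0.372 for Npas2, 0.317 for Per1, 0.189 for Per2, 0.257 for Cry2 and 0.135 for Nr1d2, and it was 0.125 for Bhlhe40, 0.338 for Bhlhe41 and 0.204 for Hlf. With the replicate number of the labels as a further term, which left 2 residual degrees of freedom in place of 4, 0 of the 15682 genes passed, clock genes included, and 1062 had an unadjusted p under 0.05. At 6 months the ratio rose with that number in both DEN groups. It was −5.004, −3.85 and 1.77 at day 2 and −5.61, −1.59 and 0.17 at day 6. In the controls it fell, from −1.27 to −2.05. Ratio and replicate number are thus partly confounded in these libraries and are hard to tell apart.

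Other properties of the Arntl-high libraries went with the clock genes. Their share of counts on mitochondrially encoded genes was 2.39, 3.52 and 2.18%, against 3.82 to 5.001% in the Dbp-high libraries and 4.03 to 5.28% at 6 months. Their 10 most abundant genes took 12.7 to 13.7% of counts against 11.5 to 12.0%. All 13 mitochondrial genes tested had lower fitted levels in the Arntl-high libraries, and 5 of them passed the threshold (0 without either control or without the Arntl-high library of day 6), among them mt-Co1 with a log2 difference of −0.74 (SE 0.164) and mt-Nd1 with −0.69 (SE 0.168). With the mitochondrial share as a covariate 0 genes were higher and 3 lower between the sides, so that at 1 month the side and this share cannot be told apart. In that fit the log2 differences of Clock, Per3, Ciart and Tef were 1.89, −4.24, −4.09 and −2.63. Those of other clock genes moved more, from −2.18 to −1.12 for Per2, from −0.75 to −0.44 for Cry2, from −0.96 to −0.47 for Hlf, from 0.57 to 1.95 for Cry1 and from −0.27 to −1.46 for Nr1d1. In the 6-month slopes 0 of the 13 mitochondrial genes passed, with a median slope of −0.017, and with the same share as a covariate 2 of 2 activators other than Arntl and 8 of 14 repressors and modulators still passed. The TMM factor, which scales the library size, was 0.906 to 0.926 in the Arntl-high and 0.971 to 1.01 in the Dbp-high libraries. At 6 months it went with the ratio in the other direction, at 1.07 and 1.10 in the 2 libraries with a ratio above 0 against 0.998 to 1.04 in the other 6. The 10 most abundant genes took 11.4 and 11.8% of counts in those 2 and 10.7 to 12.0% in the other 6. Within treatment groups (values centred on the group means) this share rose with the ratio at both ages, with Pearson r of 0.78 at 6 months and 0.90 at 1 month. The r of the TMM factor was 0.73 and −0.99, and that of the mitochondrial share −0.33 and −0.84, in the same order. The share of the 10 most abundant genes was not used as a covariate.

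Markers of cell types also differed between the sides. The sums of the hepatocyte markers given above did not overlap, with 1 of 9 markers higher at the threshold and 0 lower. Summed over 7 erythroid markers, the Arntl-high libraries held 541 to 707 CPM against 237 to 432 CPM in the Dbp-high libraries, with 6 of the 7 higher at the threshold (all genes 8.41%), globin genes among them. Summed over 11 macrophage markers, they held 547 to 600 CPM against 714 to 916 CPM, with 10 of the 11 lower (all genes 5.52%). The 6 erythroid calls were 0 without either control or without the Arntl-high library of day 2 or of day 6, and the 10 macrophage calls were 0, 0, 0 and 1 in the same fits. Cholangiocyte markers had 4 of 10 higher, stellate cell markers 4 of 11 higher and 1 lower, and sinusoidal endothelium 3 of 10 lower, which became 1 to 4, 0 to 4, 0 to 2 and 0 to 5 without 1 library. For lymphocyte, exocrine pancreas and adipocyte markers 0, 0 and 1 differed of 10, 2 and 3 tested, and for neutrophil markers 1 of 7 was higher. In such bulk samples fewer cells of a type and less RNA per cell cannot be told apart. The part of these cells and of the mitochondrial share in the differences given below was not tested beyond the fits stated.

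**Figure D3:**
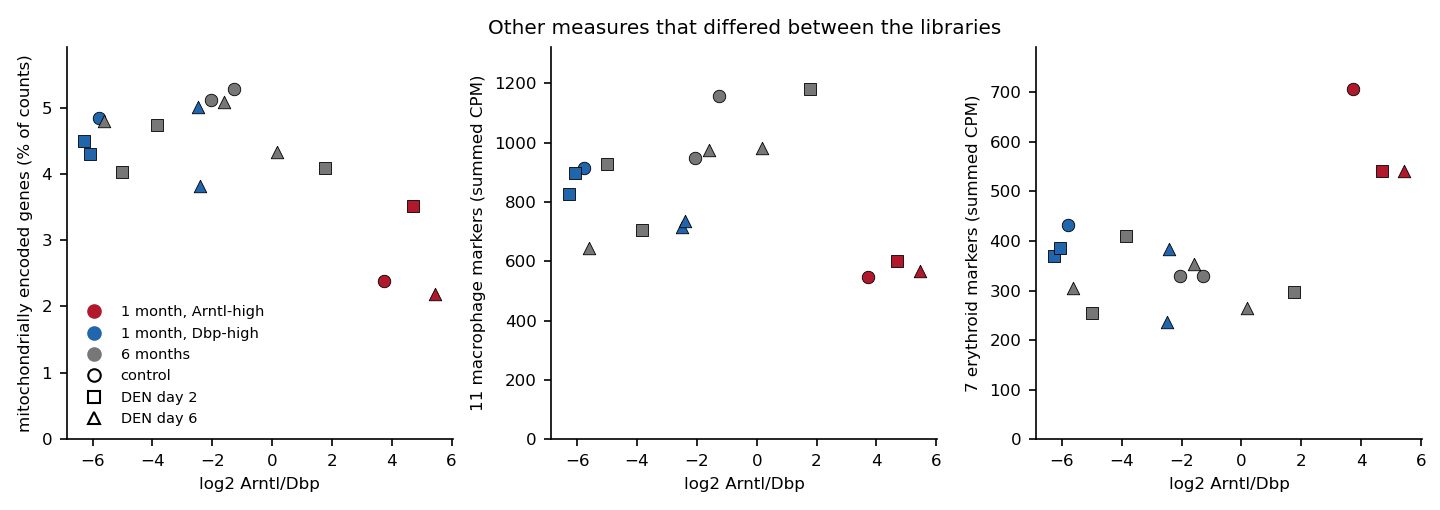
Share of counts on mitochondrially encoded genes (left, %), summed CPM of 11 macrophage markers (middle) and summed CPM of 7 erythroid markers (right), each against the log2 ratio of Arntl to Dbp (horizontal axes) for the 16 libraries. Among the 1-month libraries the Arntl-high points are lowest for mitochondrial share and macrophage markers and highest for erythroid markers, at 541 to 707 CPM.

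The sides were compared over all genes tested, clock genes included, by edgeR's quasi-likelihood test with treatment group as a covariate. Of 15684 genes, 1319 were higher and 866 lower in the Arntl-high libraries at an adjusted p under 0.1. This is 13.9% of all genes tested, 8.41% higher and 5.52% lower, and it describes libraries that were sorted by 2 of the genes. Without those 2, Arntl and Dbp, 2183 genes were called, and 2169 were called outside the clock lists. The median size of these differences was 0.69 on the log2 scale, and 577 were beyond 1. In 33.3% of all genes the Arntl-high library lay beyond the other libraries of its group in the same direction in all 3 treatment groups, and this held for 2116 of the 2185 genes called. The counts leaned on single Arntl-high libraries. Without that of control, day 2 or day 6, there were 320, 301 and 288 genes higher and 158, 147 and 101 lower. Without control replicate 1, after which only 1 control is left, there were 328 and 158. Lower genes numbered 523 without day 6 replicate 1 and 1395 without day 2 replicate 1.

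The genes with the largest differences included known outputs of the liver clock. Usp2, a deubiquitinase and direct target of the clock, was at 6.32, 4.27 and 3.65 CPM in the Arntl-high libraries and at 87.5, 78.8, 59.4, 87.3 and 46.4 CPM in the Dbp-high libraries, a log2 difference of −4.01 (SE 0.253). Wee1, the kinase that holds cells before mitosis, was at 1.84, 1.57 and 1.99 against 11.5, 18.9, 13.8, 12.1 and 8.53 CPM, a difference of −2.78 (SE 0.249). Elovl3, which elongates very long fatty acids, went the other way, at 353, 245 and 563 against 23.1, 19.8, 12.3, 52.8 and 195 CPM and 3.37 (SE 0.461). None of the 3 overlapped between the sides. Cyp7a1, the rate-limiting enzyme of bile acid synthesis, was at 69.8, 21.6 and 104 against 436, 229, 243, 407 and 149 CPM, a difference of −2.40 (SE 0.434). Chka, a choline kinase of phospholipid synthesis, was at 121, 117 and 179 against 14.8, 17.02, 18.3, 34.4 and 39.8 CPM, a difference of 2.64 (SE 0.146). Loxl4, a lysyl oxidase of the matrix, was at 17.4, 26.3 and 33.5 against 1.34, 1.61, 1.31, 0.911 and 8.41 CPM, the largest positive difference outside the clock lists among the genes named, at 3.52 (SE 0.509). The Arntl-high side was also higher in Pitx3 (3.48), Dhrs9 (3.07), Slc34a2 (2.71), Chrna4 (2.52), the tight junction gene Cldn1 (2.41), Tubb2a (2.35) and Lox (2.32). It was lower in Ppp1r3g, a glycogen-targeting subunit of protein phosphatase 1 (−2.94), the acyl-CoA thioesterase Acot3 (−2.77), Il12rb1 (−2.62), Gdap10 (−2.48) and the lipase Lipg (−2.33). Cyp2a4 (−2.58) and Cyp2a5 (−2.44), near-identical copies whose reads may be shared, were lower as well. Gdap10 kept its call in 4 of the 8 fits without 1 library, and Ppp1r3g and Tubb2a in 7. The other genes named here kept theirs in all 8.

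In the 6-month libraries 580 genes rose with the Arntl to Dbp ratio (3.70%) and 546 fell (3.48%). The smallest p-values outside the clock genes above belonged to several of the same outputs. Wee1 had a lowest of 2.06, a median of 6.01 and a highest of 17.2 CPM and fell with a slope of −0.41 (SE 0.0290, adjusted p = 0.00220), which comes to 8.23-fold over the span of the ratio. Usp2 fell with a slope of −0.51 (SE 0.0422, adjusted p = 0.00321) and Por, the electron donor of microsomal CYP enzymes, with −0.26 (SE 0.0205, adjusted p = 0.00321). Chka rose by 0.32 (SE 0.0237, adjusted p = 0.00220), and Elovl3 by 0.47 (SE 0.0439, adjusted p = 0.00498). All 5 kept their calls without any 1 library. Igfbp1, a fasting-induced binding protein of IGF, rose by 0.28, and Pitx3 and Sept11 by 0.81 and 0.18, and both lost their calls without 6-month DEN day 2 replicate 3 (highest adjusted p = 0.135 and 0.137). Sbk1 (−0.20), the vitamin transporter Slc5a6 (−0.25), the peroxisomal gene Pex26 (−0.20) and Serpina6, the corticosteroid-binding globulin (−0.21), fell. The number of genes leaned on the libraries at the ends of the ratio. It fell to 44 without day 6 replicate 1, to 94 without day 6 replicate 3 and to 127 without day 2 replicate 3 of the 6-month-old mice.

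Set side by side, 1745 of the 2183 genes called between the 1-month sides (79.9%, Arntl and Dbp left out) had a 6-month slope of the same sign, against 62.5% of all 15682 genes. A slope that passed in the same direction was found for 444, which is 20.3% of the 2183 and 39.4% of the 1126 genes that passed at 6 months, and 30 passed in the opposite direction. Outside the clock lists the figures were 79.8% of 2169 genes and 430. The comparisons share no library and no mouse. Of the 30 in the opposite direction, 29 were lower in the Arntl-high libraries and rose with the ratio at 6 months. Ppp1r3g is an example of a large difference that was not carried over, with a 6-month slope of 0.15 (adjusted p = 0.355).

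The list of rhythmic liver outputs had 6 genes higher and 12 lower of 25 between the sides, and 3 rising and 9 falling at 6 months. Over all genes 8.41% were higher and 5.52% lower between the sides, and 3.70% rose and 3.48% fell at 6 months. These shares are the background of every list count below. Its median log2 difference was −0.47 against 0.0056 over all genes, and its median slope −0.11 against 0.0013. All 12 that passed at 6 months were on the same side at 1 month. Besides Usp2, Wee1, Por, Elovl3 and Cyp2a5 they were Tspan4, Nampt, Gys2, Upp2, Gpcpd1, Pnrc1 and Slc45a3. Nampt, the rate-limiting enzyme of NAD salvage, was at 63.99, 75.4 and 64.2 CPM in the Arntl-high and 232, 175, 176, 265 and 151 CPM in the Dbp-high libraries, with a slope of −0.13 (SE 0.0333, adjusted p = 0.0802). Gys2, the liver glycogen synthase, was at 169.5, 156 and 125 against 438, 441, 341, 452 and 329 CPM, with a slope of −0.20 (SE 0.0261, adjusted p = 0.0148). Pnrc1, a nuclear receptor coactivator, was at 79.8, 85.2 and 111 against 29.5, 33.1, 29.5, 46.2 and 52.9 CPM, with a slope of 0.12 (SE 0.0211, adjusted p = 0.0310). Alas1, the first enzyme of heme synthesis, separated the sides with a log2 difference of −1.70 but had a slope of −0.14 that did not pass. Leaving out 1 library gave 1 to 3 rising and 4 to 9 falling genes in the list, fewest without day 6 replicate 1. The call of Pnrc1 was lost in 2 of these 8 fits (highest adjusted p = 0.254).

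Chaperones and folding enzymes of the endoplasmic reticulum were higher on the Arntl side at both ages. Of 20 genes of the unfolded protein response, 12 were higher between the sides and 14 rose at 6 months, with 12 in common and 0 in the other direction. The medians were 0.84 for the log2 difference and 0.11 for the slope. Sdf2l1, a cofactor of BiP, was at 49.8, 81.2 and 60.03 CPM in the Arntl-high libraries and 15.4, 23.2, 27.7, 43.6 and 27.8 CPM in the Dbp-high libraries. At 6 months Sdf2l1 had a lowest of 13.3, a median of 30.1 and a highest of 81.8 CPM and a slope of 0.25 (SE 0.0252, adjusted p = 0.00740), a 3.65-fold rise over the span. Hspa5, which encodes BiP, was at 1631, 2427 and 1931 against 801, 646, 1056, 1622 and 984 CPM, with a slope of 0.22 (SE 0.0347, adjusted p = 0.0274). Pdia4, a disulfide isomerase, was at 475, 575 and 531 against 178, 199, 230.4, 315 and 249.8 CPM, with a slope of 0.19 (SE 0.0204, adjusted p = 0.00932). Calr and Pdia3, a lectin chaperone of glycoproteins and the isomerase that works with it, had slopes of 0.13 and 0.096, whose calls were lost without 1 library or more (highest adjusted p = 0.204 and 0.234). The signalling members Atf4, Xbp1, Trib3, Ddit3, Atf3 and Herpud1 did not pass at either age, with log2 differences between the sides of −0.0048, −0.0020, −0.40, −0.12, −0.76 and 0.026. The members that passed at both ages were thus chaperones, their cofactors and folding enzymes, beside Manf, a secreted stress factor, and Syvn1, a ubiquitin ligase of the same compartment. The count between the sides was 6 without the Arntl-high library of day 2, 7 without either control and 10 to 13 without any other library. The count at 6 months was 2, 3 and 7 without day 2 replicate 3, day 6 replicate 3 and day 6 replicate 1, and 13 or 14 without any other library.

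**Figure D4:**
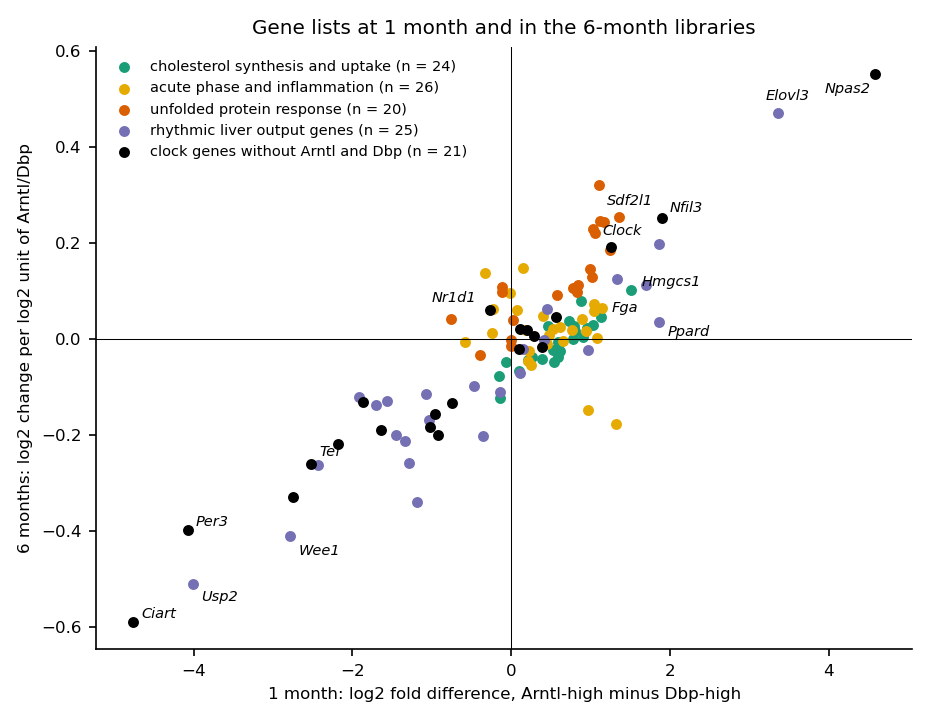
The 6-month slope (vertical axis, log2 change per log2 unit of Arntl/Dbp) against the 1-month log2 difference (horizontal axis, Arntl-high minus Dbp-high) for the genes of 5 sets, with each point a gene. Clock genes, rhythmic outputs and the unfolded protein response run from the lower left to the upper right, while genes of cholesterol synthesis and the acute phase lie to the right of 0 and near 0 on the vertical axis, with median slopes of −0.013 and 0.017.

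Other groups separated the 1-month sides and did not pass in the 6-month slopes. Cholesterol synthesis and uptake had 14 of 24 genes higher and 0 lower between the sides, with a median log2 difference of 0.59, and 0 of 24 passed at 6 months, where the median slope was −0.013. Hmgcs1, which makes HMG-CoA, was at 628, 945 and 715 CPM in the Arntl-high libraries and 285, 227, 480.2, 132 and 261 CPM in the Dbp-high libraries. Dhcr7, which makes the final step to cholesterol, was at 212, 208 and 244 against 103, 84.05, 107, 96.6 and 116 CPM. Their slopes were 0.10 (SE 0.0483, adjusted p = 0.261) and 0.044 (SE 0.0446, adjusted p = 0.598). Sc5d and Lss had log2 differences of 1.03 and 0.80. The count of 14 was 3, 4 and 6 without the Arntl-high library of day 6, of day 2 and of control, and 6 without control replicate 1.

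The acute phase list had 13 of 26 genes higher and 0 lower, with a median of 0.46, and 0 passed at 6 months, with a median slope of 0.017. Fga and Fgg, chains of fibrinogen, were examples. Fga was at 10157, 10063 and 12571 CPM in the Arntl-high and 5233, 4927, 4309, 4034 and 6280.4 CPM in the Dbp-high libraries, a log2 difference of 1.14 (SE 0.153). Fgg had a difference of 1.04, the endotoxin-binding protein Lbp 1.05 and Itih3 0.94. The cytokine genes Il1b and Tnf had −0.23 and −0.013 and did not pass. The count of 13 was 6 and 7 without the Arntl-high libraries of day 2 and day 6.

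Whether these genes followed the ratio differently at the ages was tested per gene as a difference in slope, and 0 genes of the cholesterol list and 0 of the acute phase list passed that test. The 6-month libraries span a narrower range of the ratio, from −5.61 to 1.77, and a slope that misses the threshold there is not shown to be 0.

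Fatty acid and triglyceride synthesis was mixed, with 10 genes higher and 5 lower of 20 (2 to 10 and 0 to 6 without 1 library). Elovl5, an elongase of polyunsaturated fatty acids, was at 1026, 1012 and 1109 CPM in the Arntl-high and 409, 264, 414, 267 and 471 CPM in the Dbp-high libraries, a log2 difference of 1.51 (SE 0.201). Gpam, the first acyltransferase of triglyceride synthesis, had 0.74, and Pklr, the liver pyruvate kinase, −0.81. At 6 months 3 genes fell, of which Fads2 (−0.14) was named by rule and Srebf1 (−0.12) and Dgat2 (−0.091) after their values were seen. In bile acid synthesis and transport 5 of 15 were higher and 1 lower, and 1 was higher without either control or without the Arntl-high library of day 2 or day 6. Cyp7a1 fell at 6 months as well, with a lowest of 29.1, a median of 159 and a highest of 318 CPM and a slope of −0.31 (SE 0.0838, adjusted p = 0.0923). Abcb11, the bile salt export pump, was at 1276, 1297 and 1068 against 545, 539, 544, 336 and 628 CPM between the sides and rose by 0.12 (SE 0.0286, adjusted p = 0.0649). Cyp8b1, the sterol 12-hydroxylase, and Acox2, a peroxisomal oxidase of bile acid precursors, were higher at 1 month by 0.79 and 0.65 and did not pass at 6 months. The calls of Cyp7a1, Abcb11 and Fads2 at 6 months were lost without 1 library or more, with highest adjusted p-values of 0.520, 0.351 and 0.276.

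Among 29 genes of fasting, fatty acid oxidation and gluconeogenesis, 3 were higher and 6 lower between the sides (all genes 8.41 and 5.52%). At 6 months 2 rose and 5 fell (all genes 3.70 and 3.48%), with 6 in common. Between the sides these counts ran from 1 to 6 and from 2 to 6 without 1 library. Pdk4, the kinase that inhibits pyruvate dehydrogenase, was at 15.3, 14.6 and 14.1 CPM against 6.21, 3.27, 6.82, 6.24 and 3.77 CPM and rose by 0.28 (SE 0.0340, adjusted p = 0.0124). Acot3 and Acot4, peroxisomal thioesterases, fell with slopes of −0.60 (adjusted p = 0.0124) and −0.21 (adjusted p = 0.0200), with Acot3 at 2.65, 5.27 and 2.29 against 18.4, 18.7, 69.4, 10.8 and 13.7 CPM between the sides. Pck1 and G6pc, the main gluconeogenic genes, had log2 differences of −0.047 and −0.050 and did not pass. So the list did not move as a whole, and its medians of −0.050 and −0.053 compare with 0.0056 and 0.0013 over all genes. Igfbp1, at 327, 533 and 233 against 272, 267, 225, 188 and 185 CPM, was higher between the sides, with overlapping values. That call was kept in 4 of the 8 fits without 1 library. At 6 months Igfbp1 rose and kept its call in all 8 such fits. The 6-month calls of Pdk4, Acot3 and Acot4 were lost without 1 library or more, with highest adjusted p-values of 0.112, 0.157 and 0.191.

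Lists of genes that respond to handling stress or temperature were also examined. Of 15 glucocorticoid targets and metallothioneins 1 was higher, Angptl4 (0.36), where 8.41% of all genes were, and it kept its call in 2 of the 8 fits without 1 library. At 6 months 1 fell, Fkbp5 (−0.14, adjusted p = 0.0521, highest 0.324 without 1 library). Of 15 heat shock and cold-inducible genes 1 was lower (all genes 5.52%). It was the cold-inducible Rbm3, with −0.76 at 1 month and a slope of −0.075 at 6 months (highest adjusted p = 0.315 without 1 library). Of 30 cell division genes 1 was higher and 3 were lower, where 8.41% and 5.52% of all genes were. So few calls are no result about the list, and the 3 are named as single genes, cyclins of the G1 phase. Ccne1, cyclin E1, was at 0.986, 1.09 and 2.11 CPM against 5.56, 3.73, 8.93, 5.95 and 4.76 CPM, with a slope of −0.25 (SE 0.0599, adjusted p = 0.0700, highest 0.350 without 1 library). Ccne2 and Ccnd1 had log2 differences of −1.41 and −0.96. Between the sides the calls of Ccne1, Ccne2 and Ccnd1 were kept in 7, 5 and 2 of the 8 fits without 1 library. Pcna passed at 6 months only, with −0.063 (highest adjusted p = 0.317 without 1 library). Without day 2 replicate 2 as many as 17 cell division genes were higher, and without any other library 0 or 1.

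Periportal hepatocyte genes had 6 of 14 higher and 0 lower between the sides, and pericentral genes 1 higher and 1 lower of 15 (all genes 8.41 and 5.52%). The 6 were 2 without either control or without the Arntl-high library of day 2, 3 without that of day 6, and 4 to 7 without any other library. Cdh1, E-cadherin, differed by 1.13 (SE 0.119) and Sox9, of ductal and periportal cells, by 1.64 (SE 0.250). The lower pericentral gene was Cyp2a5, given above, while the enzymes Glul, Cyp1a2 and Oat had 0.14, 0.069 and 0.35 and did not pass. Fitted differences were above 0 in 11 of 14 periportal and 11 of 15 pericentral genes, with medians of 0.40 and 0.056. Sox9 is also expressed by cholangiocytes, whose markers differed as given above. At 6 months Cdh1 and Ctsc rose with slopes of 0.10 and 0.084, calls that were kept in 3 and 4 of the 8 fits without 1 library (highest adjusted p = 0.416 and 0.350). Of the pericentral genes 2 fell there, Cyp2a5 among them, and 0 rose. The 2 became 0 to 3 without 1 library. Of 7 long noncoding RNAs, Neat1, the scaffold of paraspeckles, was at 474, 226 and 700.0 against 79.8, 103, 27.7, 70.1 and 237 CPM, with a slope of 0.16 (SE 0.0421, adjusted p = 0.0827, highest 0.330 without 1 library). Malat1 was at 79.1, 90.9 and 72.8 against 286, 189, 99.8, 236 and 223 CPM, a log2 difference of −1.33, and its slope of 0.095 did not pass. Both RNAs stay in the nucleus, and at 1 month they stood on opposite sides, a difference whose cause was not tested. Their calls between the sides were kept in 4 (Neat1) and 5 (Malat1) of the 8 fits without 1 library.

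**Figure D5:**
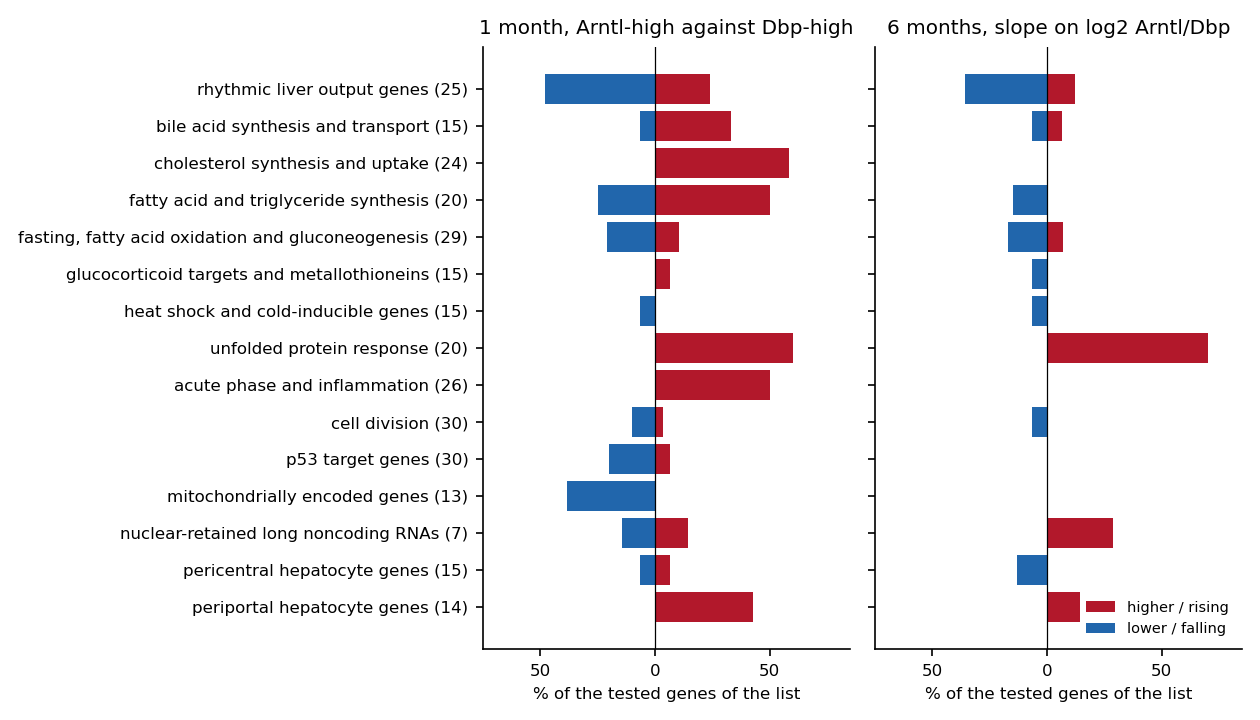
Share of the tested genes of each list (vertical axis, number tested in brackets) that were higher or rising (right, red) or lower or falling (left, blue) at an adjusted p under 0.1, for the 1-month sides (left panel) and the 6-month slope (right panel), with the horizontal axes in %. Unfolded protein response genes passed in both panels, and cholesterol and acute phase genes only in the left one, where 8.41% of all genes were higher and 5.52% lower.

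A test of the difference between the ages, with 1 slope on the ratio for each age in a model of all 16 libraries, called 47 genes (0.300%), and 1661 had an unadjusted p under 0.05. Of the 47, 44 had a lower slope at 1 month, and 43 had a slope below 0 at 1 month and above 0 at 6 months, not all of which passed on their own. Of the 11 macrophage markers 7 were among them. Clec4f, a lectin of Kupffer cells, was at 129, 119 and 116 CPM in the Arntl-high and 186, 164, 171, 129 and 141 CPM in the Dbp-high libraries. Its slopes were −0.044 at 1 month and 0.085 at 6 months, a difference of −0.13 (SE 0.0227, adjusted p = 0.0768). Cd5l, secreted by macrophages, was at 93.5, 105 and 105 against 181, 171, 185, 137 and 151 CPM, with slopes of −0.075 and 0.083 and a difference of −0.16 (SE 0.0278, adjusted p = 0.0768). Adgre1 (the F4/80 antigen), Csf1r and the complement genes C1qa, C1qb and C1qc differed by −0.18, −0.15, −0.13, −0.14 and −0.14. Of the 11 markers 5 rose with the ratio at 6 months by their own test. In 21 clock genes no difference in slope passed. The count was 44 to 53 under other size factors, other library sizes and robust fits. It was 0 with the mitochondrial share as a covariate, and without 1 library it was 0 in 11 of the 16 fits and ran up to 337 in the others.

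The study asked how the liver responded to DEN, and the Arntl-high libraries are 1 of 2 or 1 of 3 in each group of that comparison. With the side as a term beside treatment, edgeR's test called 0 genes at day 2 and 0 at day 6 against controls, and 916 and 601 had an unadjusted p under 0.05. Without the term it also called 0 and 0, and 591 and 289 had such a p. DESeq2 called 83 and 49 with the term and was not fitted without it. The study itself reported differentially expressed genes at both days at this age, by DESeq2 with age, day and their interaction in the design. The 0 calls of edgeR's test are therefore not an absence of a response to DEN. The common biological coefficient of variation was 0.181 with the term, 0.248 without it and 0.222 when the Arntl-high libraries were left out. Among 30 targets of p53, the factor that DNA damage activates, 23 were above 0 at day 2 with the term, 17 of them at an unadjusted p under 0.05, with a median log2 fold change of 0.63 against −0.0034 over all genes. At day 6 there were 22, 14 and a median of 0.43 against −0.0021 over all genes. In either direction 19 of the 30 targets at day 2 and 15 at day 6 had such a p, against 916 and 601 of all 15684 genes. These counts carry no adjusted call.

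Within the treated groups the Arntl-high library was often the lowest for these targets. Phlda3, an inhibitor of Akt, was at 1.30 and 1.16 CPM in the controls, 14.5, 32.8 and 3.44 CPM at day 2 and 8.87, 2.59 and 10.9 CPM at day 6, in the order of replicates 1 to 3. Ccng1, cyclin G1, was at 46.8 and 43.5 CPM in controls, 125, 173 and 78.8 CPM at day 2 and 107, 55.2 and 88.8 CPM at day 6. Aen, an exonuclease of apoptosis, was at 18.1 and 14.5 CPM in controls, 39.2, 47.8 and 24.4 CPM at day 2 and 35.5, 23.2 and 31.5 CPM at day 6. At both days the lowest value of each gene was that of the Arntl-high library, replicate 3 at day 2 and replicate 2 at day 6, and it was still above both controls. Over the list, the Arntl-high library was below the other two at day 2 for 22 of 30 genes (73.3%, all genes 31.8%) and at day 6 for 17 of 30 (56.7%, all genes 33.3%), and below the other control for 14 of 30 (46.7%, all genes 48.9%). This count was chosen after the values were seen, and whether the difference between treated and control groups is itself larger than their spread was not tested. Between the sides 2 of the 30 targets were higher, Bbc3 (1.07) and Fas (0.70), where 8.41% of all genes were. Lower were 6, among them Phlda3 (−1.91) and Plk3 (−1.73), where 5.52% of all genes were, and 0 passed in the 6-month slopes. The 6 were 1 without the Arntl-high library of day 2 or of day 6, and Fas lost its call without any 1 Arntl-high library and without control replicate 1.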

How the data were processed

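RNA of mouse liver was sequenced in 16 libraries of 6 groups. Per the study's methods, the libraries were made with Illumina's TruSeq kit and run on a NextSeq sequencer. Alignment was by TopHat2 2.0.13 to the GRCm38 build and its Ensembl genes. The submitters' processing notes also list cutadapt 1.7.1l and Cufflinks 2.2.1. The values used are the raw counts that the authors deposited, 1 per gene and library. The sources used here do not state which program counted reads or whether strand was used, so overlapping genes cannot be told apart. Columns of the authors' fold changes and adjusted p-values, and 16 columns of their normalized counts, were not used. Of 47729 genes, 10 without a count given were left out and filterByExpr with the 6 groups kept 15684.

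Differences were tested with edgeR 4.0.16 (glmQLFit and glmQLFTest, TMM scaling, R 4.3.3, limma 3.58.1) and p-values were adjusted over all genes tested (Benjamini-Hochberg) and called at 0.1, the study's own limit. CPM was computed over TMM-scaled library sizes. Fitted fold changes have a prior count of 0.125. The sides were fitted in the 8 libraries of 1-month-old mice with treatment group as a covariate, and the slopes in the 8 of 6-month-old mice. DESeq2 1.42.0, other scalings, no filter, the mitochondrial share, the replicate number and leaving out each library in turn were alternatives. The fits were tested on simulated data.

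The members and lists were chosen with earlier results of these data known. Named were all clock genes, the 10 genes with the largest differences in each direction between the sides, the 10 smallest p-values in each direction of the slopes, and up to 4 genes of each other list. The differences had to pass with at least 1 CPM, an official symbol and no overlap within any treatment group. Of the genes so chosen, 3 are not reported here. Genes given as examples of a list that did not pass, and Hspa5, Manf, Syvn1, Nampt, Gys2, Alas1, Tspan4, Upp2, Gpcpd1, Slc45a3, Srebf1, Dgat2, Ccng1, Aen and the macrophage markers, were named after their values were seen.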

Additional observations from a re-analysis of the deposited data

Results flagged for a closer look

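The slope on the Arntl to Dbp ratio differed between the ages for 47 genes at an adjusted p under 0.1, by edgeR's test of the difference itself. In the macrophage markers the difference, 1 month minus 6 months, was −0.13 for Clec4f, −0.16 for Cd5l, −0.18 for Adgre1, −0.13 for C1qa, −0.14 for C1qb, −0.14 for C1qc and −0.15 for Csf1r. Each had a slope below 0 among the 1-month libraries and above 0 among the 6-month libraries, where Cd5l and C1qb did not pass on their own. Lrat, which stores retinol in stellate cells, differed by −0.17, and Pmaip1, a BH3-only gene of the p53 list, by −0.26. Igfbp1 rose with the ratio at both ages, less steeply at 1 month (0.067) than at 6 months (0.28), a difference of −0.21. Serpina6 fell at both, less steeply at 1 month (−0.058) than at 6 months (−0.21), a difference of 0.15. The mitochondrial share was lowest in the 3 libraries with the highest ratio at 1 month, at 2.18 to 3.52%, and lay between 4.03 and 5.28% at 6 months. With this share as a covariate none of the 47 calls was kept.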

How the results depend on the processing

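The counts between the sides and in the slopes stayed within 1.5 times under other size factors, library sizes without mitochondrial and the 10 most abundant genes, no filter on low counts, DESeq2 and robust fits. With the mitochondrial share as a covariate, 0 genes were higher and 3 lower between the sides. With log2 Arntl alone in place of the ratio, 172 genes rose and 161 fell at 6 months. The count of differences in slope was 669 without the filter, 295 with DESeq2 and 0 with the mitochondrial share. For DEN with the side in the model, no filter gave 360 genes at day 2 and 268 at day 6, and DESeq2 gave 83 and 49.

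The share of genes called between the sides with a slope of the same sign was 77.2% without the filter, 50% of the few genes left with the mitochondrial share, and 77.3% with 1 model of all 16 libraries. With other slopes it was 81.8% with the mitochondrial share, 81.9% on Arntl alone and 76.4% on Dbp alone. The share that also passed was 17.7%, 50% and 14.7% for the first group of settings, and 24.3% for slopes without the filter, 24.9% with DESeq2, 23.4% with the mitochondrial share, 10.8% on Arntl alone and 17.7% on Dbp alone.

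The replicate numbers were not taken as pairs, since the labels tie them to no shared mouse or batch and deviations from the group means correlated at −0.302 to 0.588 between libraries of the same number at 1 month and at −0.169 to 0.493 at 6 months. The evidence at 6 months was mixed, since each library of day 2 and day 6 correlated best with that of its own number, at 0.252, 0.233 and 0.493, while the controls did not. With a replicate block, 520 genes were higher and 300 lower between the sides, 0 rose and 0 fell at 6 months (1062 at an unadjusted p under 0.05), 0 differed in slope, and 2 and 5 passed at days 2 and 6. The same-sign share was then 88.0% with the block in the sides and 72.6% with it in the slopes, and the share that passed 30.3% and 0.0%.

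Leaving out 1 library gave 288 to 1801 genes higher and 101 to 1395 lower between the sides, 28 to 936 rising and 16 to 717 falling at 6 months, 0 to 337 differences in slope, 0 to 58 genes at day 2 and 0 to 9 at day 6. The same-sign share ran from 74.0 to 94.3% and the share that passed from 1.47 to 44.2%. Of 68 named genes called between the sides 41 kept the call without any 1 library, and of 54 called in the slopes 18, with no change of sign. The reversed values were slopes of 0.041 for Cyp2a4, −0.017 for Kcnq1ot1 and −0.020 for Cdh1 with the replicate block, and log2 differences of 0.027 for mt-Nd2 and 0.12 for mt-Nd6 with the mitochondrial share. With 2 controls per age and pools in place of mice, small differences were beyond the precision of these libraries, and genes under about 1 CPM rest on few counts.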

Other observations

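Some markers of nonparenchymal cells rose with the Arntl to Dbp ratio at 6 months, but not those of all such cells. Of the sinusoidal endothelium markers 0 of 10 passed in either direction, with a median slope of 0.032. Of the stellate cell markers 3 of 11 rose, of the neutrophil markers 3 of 7, of the lymphocyte markers 1 of 10 and of the cholangiocyte markers 1 of 10, and 0 of these fell, against 3.70% of all genes rising. The neutrophil calls rest on few counts, with 1 of the 3 genes at 0.763 CPM or less in every 6-month library. Of the hepatocyte markers 1 of 9 fell, and of the erythroid markers 0 of 7 passed in either direction. The summed macrophage markers ranged from 644 to 1181 CPM over the 8 libraries. Most of these calls were lost without 1 of the libraries at the ends of the ratio.

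The clock motifs were also counted in promoters of the genes called between the sides. An E-box was found in 10.5% of the promoters of genes higher in the Arntl-high libraries, in 13.3% of those of lower genes and in 11.3% of all. The D-box was found in 1.35, 2.21 and 0.947%, and the REV-ERB/ROR element in 3.64, 2.21 and 2.55%, in the same order. These shares count letters within 250 bases before and 50 after a start and were not tested. Of the 10 genes with the largest positive and the 10 with the largest negative difference, 8 and 6 had a promoter, and none of these held an E-box or a D-box.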
